A study of Mus musculus with 19 samples.

Results

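The insulin-like growth factor (IGF) system of peritoneal fibroblasts is described here through 10 genes, namely the ligands Igf1 and Igf2, the imprinted non-coding RNA H19, the receptor Igf1r, and the binding proteins Igfbp2 to Igfbp7. The genes were chosen by symbol from the 12799 genes of the count table. Of the 10, 9 had counts, and Igf2 is not analysed here. After a filter on low counts, 7 of the 9 were among the 5980 genes tested, and Igf1r and Igfbp2 were below the filter.

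The fibroblasts came from C57BL/6;Col1a1-YFP mice, in which the promoter of the collagen gene Col1a1 drives a yellow fluorescent protein. They were isolated by sorting after enzymatic digestion of the peritoneum. Mice with tumours had been injected intraperitoneally with ID8 cells, a mouse ovarian carcinoma line that carried tdTomato, and control mice had received PBS alone. The 19 MARS-seq libraries, a 3′ protocol for small amounts of RNA, were from 5 normal, 5 day 7, 5 day 28 and 4 end stage peritonea. All groups carried the same transgene, and the sort takes cells in which that promoter is active. The labels give neither the day of the end stage nor the age or sex of the mice. They describe each library as a biological replicate.

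IGF1 and IGF2 are secreted growth factors that signal through the tyrosine kinase IGF1R to the PI3K and MAPK pathways. The IGFBPs bind the ligands outside the cell, lengthen their life and hold them back from or bring them to the receptor, and proteases that cleave an IGFBP set its ligand free. IGFBP7 binds IGFs weakly. Fibroblasts are a known source of IGF1 and of several IGFBPs in many tissues.

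Total counts ran from 66061 to 2449339 per library, and the median library held 304626 counts in the normal group, 313890 in the day 7 group, 172313 at day 28 and, at the end stage, 378400. A floor of 3 counts, the most that an observed 0 is compatible with, was 1.22 CPM (counts per 1e6 library counts) in the deepest library and 45.4 CPM in the shallowest, counting error only. Levels below are CPM on TMM-scaled library sizes, and fold changes are log2 values ± SE from edgeR. All 10 fibroblast markers were tested, and their summed level was 33289 to 43168 CPM in end stage, against 29549 to 39304 CPM in normal libraries. The summed immediate-early genes, a sign of dissociation stress, stood at 20052 to 29780.1 CPM in end stage and 26823 to 41873 CPM in normal libraries, and the 5 erythrocyte genes at 62.02 to 1575 CPM in end stage and 59.6 to 150.5 CPM in normal libraries. Of the 13 tested immediate-early genes, 1 had a positive log2 fold change at the end stage against normal. Among the same 13, 1 was lower at an adjusted p under 0.05 in edgeR. All 4 tested erythrocyte genes had positive values in this comparison, with a median of 3.07, and 1 was higher at that threshold. The part of these genes in the results was not tested. In bulk RNA, fewer cells of a type and less RNA per cell cannot be told apart.

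The H19 transcript is the host of a microRNA, and both mature arms are shown because they are what the locus is best known to release. They are RefSeq sequences of the minus strand of chromosome 7 in GRCm38.p6, with the seed (bases 2 to 8) in capitals. The libraries measured polyadenylated RNA, so H19 counts are not a measure of either arm.
mmu-miR-675-5p: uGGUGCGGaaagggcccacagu
mmu-miR-675-3p: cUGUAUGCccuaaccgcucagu

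At the end stage the mean share in the Igfbp counts was above that of normal libraries for Igfbp2, Igfbp4 and Igfbp7. It was lower for Igfbp3, Igfbp5 and Igfbp6. The Igfbp4 shares overlapped, at 0.204% to 1.41% in end stage and 0.126% to 0.317% in normal libraries. Those of Igfbp2 also overlapped, at 0% to 0.370% and 0% to 0.0227%. The shares of a library have a fixed sum, so a larger share of any gene lowers the others. Igfbp3 and Igfbp7 had log2 fold changes of −1.01 and 0.61 at the end stage against normal. Neither had an adjusted p under 0.05 in edgeR (0.0697 and 0.458). Their promoters are shown as a pair of opposite direction, chosen by these values. Each is the 250 bases before the RefSeq gene start on the minus strand of GRCm38.p6, chr11:7213924-7214173 for Igfbp3 and chr5:77408046-77408295 for Igfbp7. Capitals mark the GC box GGGCGG on either strand.
Igfbp3: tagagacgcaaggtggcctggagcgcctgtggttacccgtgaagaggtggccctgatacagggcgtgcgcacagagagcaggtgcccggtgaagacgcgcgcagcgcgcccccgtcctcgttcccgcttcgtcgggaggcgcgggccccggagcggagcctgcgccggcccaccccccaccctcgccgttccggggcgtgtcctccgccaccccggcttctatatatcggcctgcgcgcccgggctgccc
Igfbp7: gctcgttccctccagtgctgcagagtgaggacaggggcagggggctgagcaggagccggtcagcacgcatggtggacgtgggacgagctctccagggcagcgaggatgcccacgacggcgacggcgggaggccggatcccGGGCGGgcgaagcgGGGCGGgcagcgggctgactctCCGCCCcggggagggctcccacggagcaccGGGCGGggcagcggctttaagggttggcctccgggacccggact
The Igfbp7 window held 4 GC boxes and the Igfbp3 window 0. The windows of Igfbp4, Igfbp5, Igfbp6 and Igf1 also held 0, that of Igf1r 2, and the 2 windows of Igfbp2 3 and 0. A relation of GC boxes to the levels was not tested. The motif occurred in 32.7% of 32851 promoter windows of this length. Both windows were rich in G and C, 74% for Igfbp7 and 73.2% for Igfbp3, and neither held TATAAA, found in 12.4% of windows, or the AP-1 motif TGANTCA, found in 6.75%.

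At the end stage against the normal peritoneum, Igf1, Igfbp3 and Igfbp5 had lower means, with log2 fold changes of −1.15, −1.01 and −0.95, and Igfbp4 and Igfbp7 higher ones, with 1.34 and 0.61. Igfbp2, below the filter, had counts in 3 of the 4 end stage libraries and in 1 normal library. Of the 7 tested members, 0 were called in this comparison at an adjusted p under 0.05 (edgeR quasi-likelihood test, Benjamini-Hochberg over 5980 genes), against 24 genes, or 0.401%, of all genes tested. At an unadjusted p under 0.05 there were 5 members, Igf1, Igfbp3, Igfbp4, Igfbp5 and Igfbp7, beside 421 genes or 7.04% of all. The member median of the log2 fold change was −0.38, with 3 positive and 4 negative, and the median of all genes was −0.02.

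At day 7 against normal, 0 of 7 members were called, beside 0.0502% of all genes (3 genes), and at an unadjusted p under 0.05 there was 1 member, H19, beside 3.48%. At day 28 against normal, 0 of 7 were called beside 0% of all genes, and 1 member, Igfbp3, had an unadjusted p under 0.05 beside 7.06%. The member medians were −0.07 at day 7 and −0.04 at day 28, close to the all-gene medians of −0.02 in both.

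Between successive stages, 0 of 7 members were called at day 28 against day 7, beside 0% of all genes, and 0 members had an unadjusted p under 0.05, beside 9% of all genes (538). In the comparison of end stage with day 28, 0 of 7 were called beside 0.401% of all genes (24), and 1 member, Igfbp7, had an unadjusted p under 0.05 beside 9.72%. A joint test of the 3 stages against normal called 0 of 7 members beside 0.686% of all genes, with 2 members, Igfbp3 and Igfbp7, at an unadjusted p under 0.05 beside 8.96%. These comparisons share libraries, so their counts are not independent of each other. DESeq2 called 1 member in all of them together, Igfbp3 at the end stage.

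**Figure D1:**
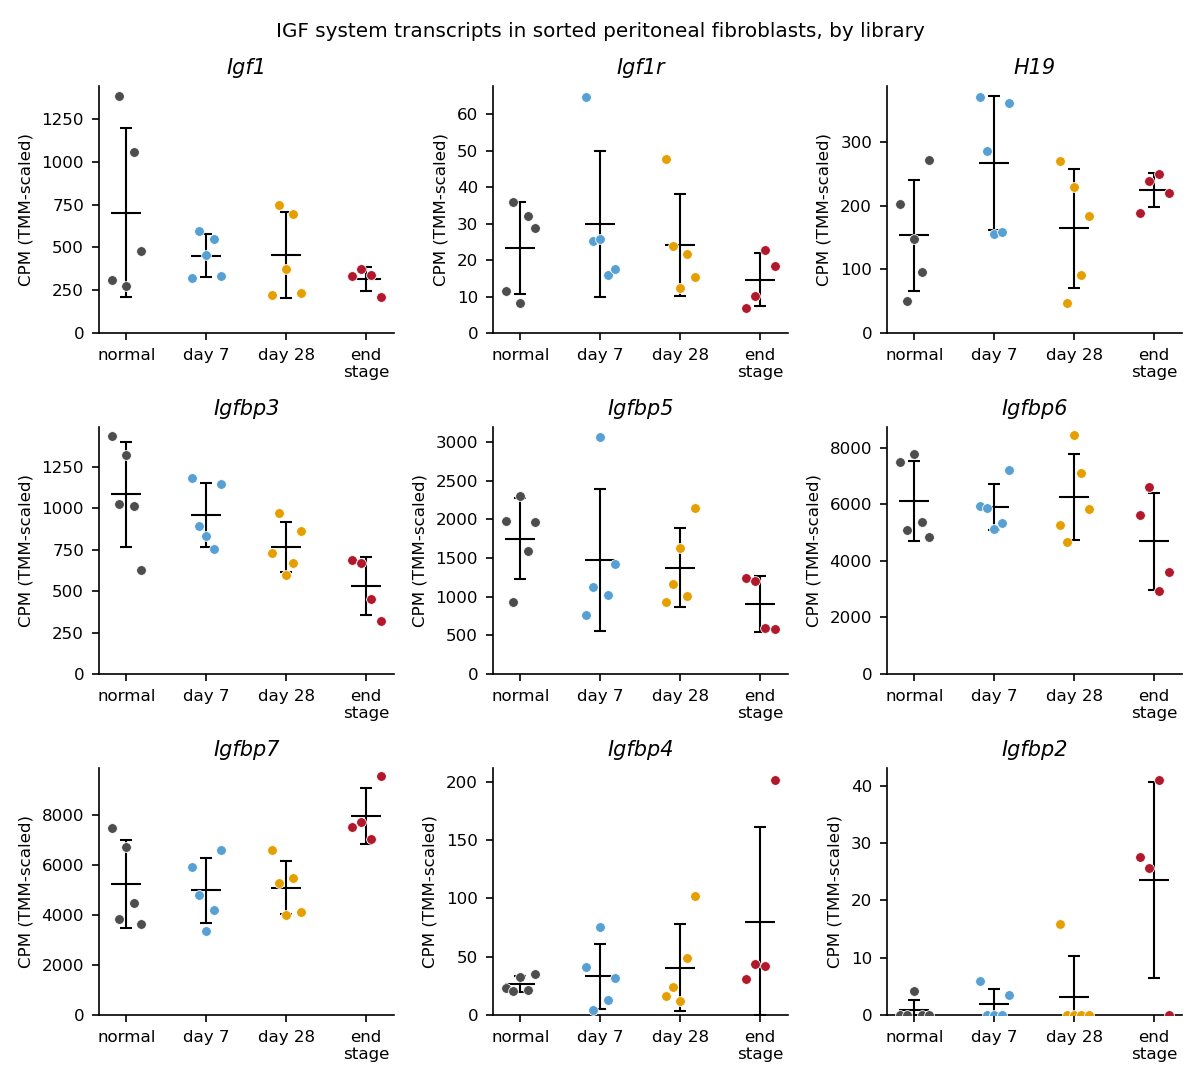
Level of each member with counts, in CPM scaled by TMM, for every library of the normal, day 7, day 28 and end stage groups. Points are libraries, horizontal marks are group means and bars are 1 SD (drawn no lower than 0). Igfbp3 averaged 531 CPM at the end stage, against 1083 CPM in normal libraries, and the end stage libraries of Igfbp7 lay at 7020.1 to 9567 CPM.

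Igf1, the ligand made in many tissues under growth hormone, varied widely in the normal peritoneum. Its normal libraries held 312, 1385, 276, 1058 and 480.5 CPM, and its day 7 libraries 324, 598, 455, 552 and 334 CPM. At day 28 the values were 222, 748, 372, 697 and 235 CPM, and at the end stage 334, 375, 339 and 211 CPM. Normal replicates 2 and 4 were the highest of the 19 libraries, and the end stage libraries overlapped the lower part of the normal range. The mean was 315 ± 71.5 CPM at the end stage (SD, n = 4) and 702 ± 494 CPM in normal libraries (SD, n = 5), a log2 fold change of −1.15 ± 0.44. The 95% interval was −2.07 to −0.24, with an adjusted p of 0.460 in edgeR. Macrophages also make IGF1, and the summed level of the 9 macrophage markers with counts, of 10 listed, was 121 to 452 CPM at the end stage, against 64.5 to 123 CPM in normal libraries, with none of the 9 at 0 counts throughout. Their part in the Igf1 values was not tested.

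Igf1r, the receptor, was read too thinly for the model, with 60 counts in the 4 end stage libraries and 51 in the 5 normal libraries. Its mean was 14.5 ± 7.26 CPM at the end stage (SD, n = 4), against 23.3 ± 12.5 CPM in normal libraries (SD, n = 5). At day 7 it was 29.9 ± 20.0 CPM and at day 28 it was 24.1 ± 13.9 CPM (SD, n = 5 each). All groups overlapped, and none of the 5 comparisons passed an exact permutation test. That test gave a two-sided p of 0.238 for end stage against normal, adjusted 0.595 over 10 tests. Pooled over libraries on unscaled totals, the ratio of end stage to normal was 0.683, with an interval of 0.463 to 1.01 for counting error alone. End stage replicate 4 gave 52 of the 60 pooled counts, and replicates 2, 3 and 5 gave 2, 4 and 2.

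H19, an imprinted RNA that lies beside Igf2 on chromosome 7 and is high in growing embryonic tissue, had its largest mean at day 7. Normal libraries held 202, 49.7, 148, 95.9 and 272 CPM, and day 7 libraries 371, 286, 156, 158 and 362 CPM. At day 28 the values were 270.1, 47.5, 229, 91.9 and 184 CPM, and at the end stage they were 189, 239, 250.4 and 219.9 CPM. Of the 5 day 7 libraries, 3 lay above every normal library, while at the end stage none did. The day 7 mean was 267 ± 105 CPM, against 154 ± 87.5 CPM in normal libraries (SD, n = 5 each), a log2 fold change of 0.80 ± 0.38 with an adjusted p of 0.999 in edgeR. The spread was narrowest at the end stage, 225 ± 26.7 CPM (SD, n = 4).

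**Figure D2:**
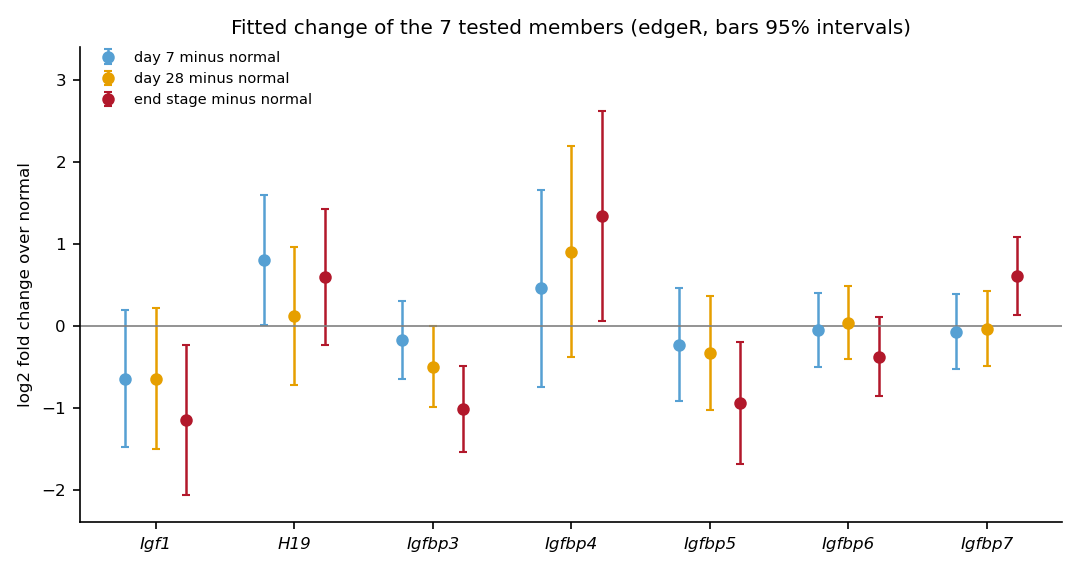
Log2 fold change over normal of the 7 tested members at day 7, day 28 and the end stage, from the edgeR model of 19 libraries, with 95% intervals as bars. The end stage interval lies wholly below 0 for Igf1, Igfbp3 and Igfbp5 and wholly above 0 for Igfbp4 and Igfbp7, before any adjustment for the number of genes.

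Igfbp3 is the main IGF carrier in serum, where it forms a complex with the acid-labile subunit, and acts as a store of ligand in tissue. Its normal libraries held 1434, 1022, 1322, 1015 and 624.6 CPM, and its day 7 libraries 1184, 892, 829.8, 753 and 1145 CPM. At day 28 it held 731, 973, 595, 670.2 and 862 CPM, and at the end stage 685, 667, 452 and 321 CPM. Each later group had a lower mean than the one before, and the end stage overlapped the normal range through normal replicate 5 alone. The means were 1083 ± 316 CPM in normal, 961 ± 193 in day 7 and 766 ± 151 in day 28 libraries (SD, n = 5 each), and 531 ± 176 at the end stage (SD, n = 4).

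The log2 fold change of Igfbp3 was −1.01 ± 0.26 at the end stage against normal, with a 95% interval of −1.54 to −0.49 and an adjusted p of 0.0697 in edgeR, just short of the threshold. In DESeq2 its adjusted p was 0.0155, in limma-voom 0.0613, and in the authors' deposited table it was 0.0235, for a log2 fold change of −1.01. Without end stage replicate 4 the adjusted p in edgeR was 0.362, without end stage replicate 5 it was 0.240, and without normal replicate 5 it was 0.0310. At day 28 against normal the log2 fold change was −0.50 ± 0.24, and at day 7 it was −0.17 ± 0.24, with adjusted p of 0.699 and 0.999 in edgeR. The 3 stages share the normal libraries, so their values are not independent.

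Igfbp5, a binding protein held in the matrix and made by many mesenchymal cells, was also lower on average at the end stage. Its normal libraries held 1983, 929.8, 2297, 1588 and 1963 CPM, and its day 7 libraries 759.9, 1132, 3069, 1022 and 1419 CPM. At day 28 the values were 938, 1163, 1631, 1005 and 2146 CPM, and at the end stage they were 1242, 1201, 600.4 and 577 CPM. Day 7 replicate 3 stood above all other libraries, and the end stage libraries lay below 4 of the 5 normal ones. The end stage mean was 905 ± 366 CPM (SD, n = 4), against 1752 ± 524 CPM in normal libraries (SD, n = 5), a log2 fold change of −0.95 ± 0.36 with an adjusted p of 0.458 in edgeR.

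Igfbp7, a secreted protein of vessel walls and matrix that binds IGFs weakly, had a higher mean at the end stage than in any other group. Its normal libraries held 7498, 3839, 6715, 4494 and 3623 CPM, and its day 7 libraries 5932, 4810.4, 3346, 4217 and 6596 CPM. At day 28 it held 6611, 5269.7, 4012, 5491 and 4112 CPM, and at the end stage 7533, 7717, 7020.1 and 9567 CPM. All 4 end stage libraries lay above every day 28 library. Such a lack of overlap, in either direction, was found for 186 genes, or 3.11% of all tested. Normal replicate 1 reached into the end stage range. The mean was 7959 ± 1112 CPM at the end stage (SD, n = 4), against 5099 ± 1075 CPM at day 28 (SD, n = 5), a log2 fold change of 0.64 ± 0.24 with an adjusted p of 0.316 in edgeR. Against the normal mean of 5234 ± 1761 CPM (SD, n = 5) it was 0.61 ± 0.24, with an adjusted p of 0.458.

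Endothelial cells and pericytes are known to make IGFBP7. The summed level of the 8 endothelial markers with counts, of 9 listed, was 89.9 to 203 CPM at the end stage, against 96.8 to 249 CPM in normal libraries. For the 8 pericyte and smooth muscle markers, all with counts, it was 280.1 to 433 CPM at the end stage, against 168 to 339 CPM in normal libraries. None of these markers was at 0 counts throughout, and their part in the Igfbp7 values was not tested.

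Igfbp6, which prefers IGF2 to IGF1, had overlapping levels in all groups. Its libraries spanned 4853 to 7790.01 CPM in normal, 5147 to 7203 in day 7, 4664 to 8463 in day 28 and 2943 to 6616 CPM in end stage mice. End stage replicates 4 and 5, at 2943 and 3619.8 CPM, were the lowest of the 19. The log2 fold change at the end stage against normal was −0.38 ± 0.24, with an interval of −0.86 to 0.10 and an adjusted p of 0.836 in edgeR.

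Igfbp4, the binding protein that the protease PAPP-A cleaves, was low, with 1 to 120 counts per library. It ranged from 20.7 to 35.2 CPM in normal, 4.21 to 75.7 in day 7, 12.4 to 102 in day 28 and 31.0 to 202 CPM in end stage libraries. One library, end stage replicate 5, with 22 counts, gave the highest value, and the other 3 end stage libraries lay at 31.0 to 43.6 CPM. The log2 fold change at the end stage against normal was 1.34 ± 0.62, with an adjusted p of 0.667 in edgeR. Without end stage replicate 5 it was 0.59 ± 0.57, with an adjusted p of 0.958, and over all alternatives it ran from 0.59 to 1.61.

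Igfbp2, a binding protein abundant in fetal tissue and raised in many carcinomas, was barely counted outside the end stage. It had 8, 10, 94 and 0 counts in the 4 end stage libraries, and 1 count in all over the 5 normal, 2 over the 5 day 7 and 1 over the 5 day 28 libraries. That gave 27.5, 25.7, 41.1 and 0 CPM at the end stage, against 0 to 4.12 CPM in normal libraries. Counts were thus present in 3 of 4 end stage libraries, and end stage replicate 5, with none, was one of the shallowest, where 3 counts make 26.5 CPM.

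Pooled over libraries, Igfbp2 stood at 33.7 CPM at the end stage, against 0.519 CPM in normal libraries, a ratio of 65.1 with an interval of 11.4 to 2593 for counting error alone. The exact permutation test of its mean level gave a two-sided p of 0.0952, adjusted 0.476 over 10 tests. Fitted without the filter on low counts, edgeR gave an adjusted p of 0.00715, and the authors' deposited table gives 0.116 for a log2 fold change of 4.84. The summed level of the 3 epithelial and carcinoma markers with counts, of 6 listed, was 32.2 to 106 CPM at the end stage, against 29.8 to 65.7 CPM in normal libraries, with none at 0 throughout. For the 12 mesothelial markers, of 13 listed, it was 288 to 636 CPM at the end stage, against 591 to 1441 CPM in normal libraries. Of the 8 tested mesothelial markers, 1 had a positive log2 fold change in this comparison. Krt8 and Krt18 were picked from the mesothelial markers after their counts were seen. They had 197 and 148 of 3319302 pooled end stage counts, against 32 and 38 of 1928422 normal counts. Msln, Lrrn4, Rspo1 and Cldn15 had 140, 74, 248 and 166 end stage counts, against 170, 139, 291 and 256 normal counts. End stage replicate 4 alone held 2449339 of the pooled end stage counts. The part of these markers in the Igfbp2 values was not tested.

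**Figure D3:**
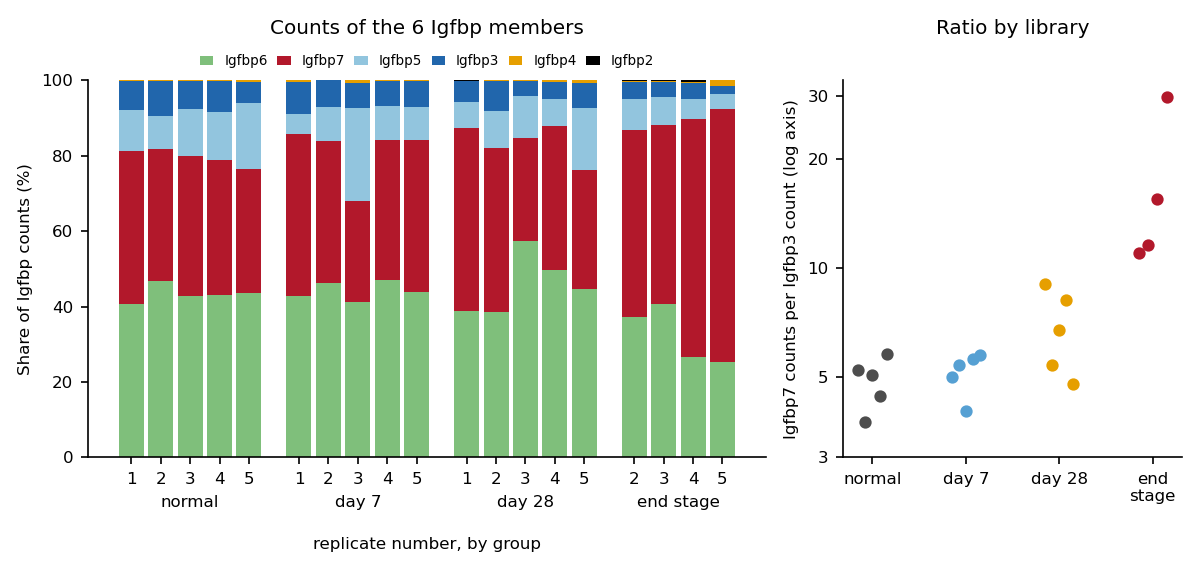
Left, share of each Igfbp in the summed counts of the 6 Igfbp members, 1 bar per library, by group and replicate number. Right, Igfbp7 counts per Igfbp3 count by library, on a log axis. The ratio was 11.0 to 29.8 in end stage libraries and 3.76 to 5.80 in normal libraries.

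Taken as a pool, the 6 Igfbps summed to similar levels, 14199 ± 2221 CPM at the end stage (SD, n = 4) and 14212 ± 3776 CPM in normal libraries (SD, n = 5). Igfbp7 made 32.6% to 40.7% of these counts in normal, 26.8% to 42.7% in day 7, 27.3% to 48.7% in day 28 and 47.4% to 67.0% in end stage libraries. For Igfbp3 the share was 5.63% to 9.38% in normal, 6.62% to 8.53% in day 7, 4.05% to 8.05% in day 28 and 2.25% to 4.52% in end stage libraries. The end stage shares of both genes overlapped those of day 28 and lay outside those of the normal libraries. The number of Igfbp7 counts per Igfbp3 count was 3.76 to 5.80 in normal, 4.03 to 5.76 in day 7, 4.77 to 9.04 in day 28 and 11.0 to 29.8 in end stage libraries. The shares and the ratio were chosen after the values were seen and have no test, and as counts are not scaled by length, the order of shares between genes is not read. The shares of a library have a fixed sum, so a larger Igfbp7 share lowers those of the other genes.

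Among the other genes of the pathway, chosen by role, 76 were listed, 65 had counts and 47 were tested. In each comparison with normal, and at day 28 against day 7, 0 of the 47 were called in edgeR. At the end stage against day 28, 1 was called higher and 0 lower, and in the joint test 1 was called. That gene was Ccn2, a secreted matrix protein with an IGFBP-like domain and a known target of TGF-beta. At the end stage against normal, 15 of the 47 had a positive and 32 a negative log2 fold change, with a median of −0.15, and 11 had an unadjusted p under 0.05, beside 7.04% of all genes. Of all genes, 0.401% were called in this comparison and at the end stage against day 28, and 0.686% in the joint test.

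Ccn2 rose at the end stage relative to day 28, with 251, 382, 2631 and 596 CPM at the end stage, against 118 to 270.1 CPM at day 28. Replicate 4 was far above the other end stage libraries, and replicate 2 lay within the day 28 range. The log2 fold change was 2.41 ± 0.52 with an adjusted p of 0.0462 in edgeR. Without end stage replicate 4 it was 1.13 ± 0.31, with an adjusted p of 0.278, and leaving out any 1 of 15 other libraries also ended the call, with adjusted p from 0.0548 to 0.138. In the joint test the adjusted p of Ccn2 was 0.0333 in edgeR, and 0.413 without end stage replicate 4. That call was also lost in limma-voom (adjusted p of 0.0678), without the filter in edgeR (0.0607), with the shallow libraries left out (0.0937) and without any 1 of 9 other libraries, with adjusted p from 0.0505 to 0.0763.

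Of the next genes in the order of the joint test, Ccn3, a relative of Ccn2, averaged 515 ± 250.2 CPM at the end stage (SD, n = 4), against 287 ± 23.8 CPM in normal libraries (SD, n = 5), a log2 fold change of 0.88 ± 0.28. Pik3r1, the regulatory subunit of PI3-kinase, had 68.8, 61.6, 58.6 and 18.3 CPM at the end stage, all below the normal range of 92.5 to 184 CPM. Its log2 fold change was −1.29 ± 0.33. These end stage values rest on 20, 24, 134 and 2 counts. The last, in replicate 5, is below the floor of 3 counts, or 26.5 CPM in that library. Ctsd, a lysosomal protease that can cleave IGFBPs, had 944 to 1262 CPM at the end stage, above all normal libraries at 477 to 809 CPM, a log2 fold change of 0.69 ± 0.22. Groups without overlap in this comparison were found for 190 genes, or 3.18% of all tested, and for 0 of the 7 tested members. None of the 3 was called at the end stage against normal, with adjusted p of 0.202 for Ccn3, 0.0716 for Pik3r1 and 0.195 for Ctsd in edgeR.

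**Figure D4:**
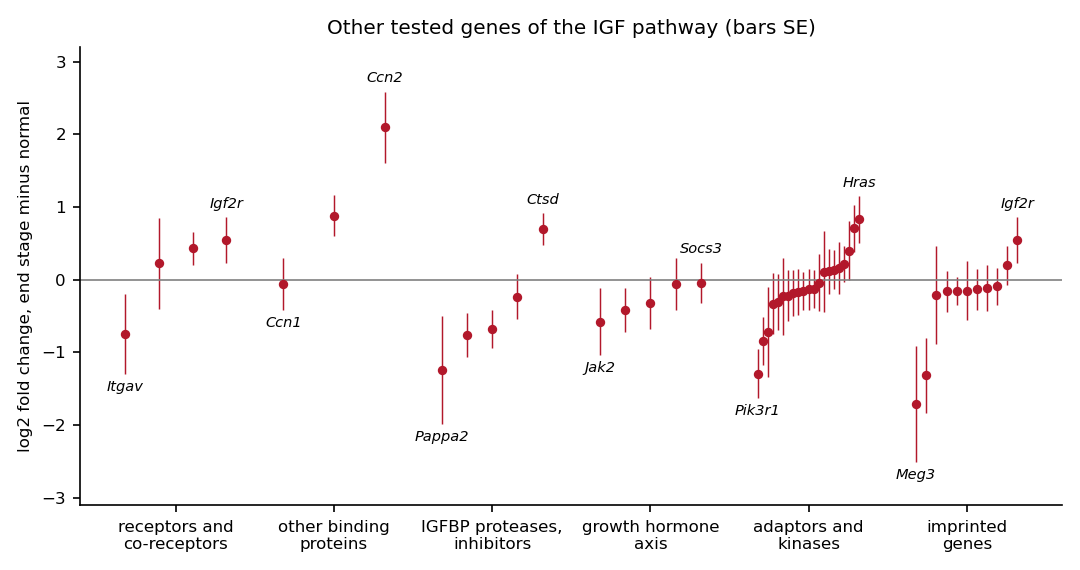
Log2 fold change of the end stage over normal for the other tested genes of the pathway, grouped by role, with SE as bars and the lowest and highest gene of each group named. Ccn2 lies highest at 2.09 and 32 of 47 genes lie below 0. Igf2r and Grb10 are drawn in both lists that hold them.

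By role, the 4 tested receptors and co-receptors had a median log2 fold change of 0.33 at the end stage against normal and the 5 tested IGFBP proteases and inhibitors −0.68, with 0 called in each. The 5 genes of the growth hormone axis had −0.32 with all 5 negative, the 21 adaptors and kinases −0.13, and the 11 imprinted genes −0.15, again with 0 called. Of 3 mRNA-binding proteins, 1 had counts and 0 were tested. Htra1, a protease that cleaves IGFBPs, had a log2 fold change of −0.68 ± 0.26 with an adjusted p of 0.458 in edgeR, and is named here because its levels were among the closest to those of Igfbp3.

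Over the 19 libraries, the genes whose log2 CPM most resembled each member were taken from about 1750 genes of at least 100 CPM, as a description. Igfbp3 was closest to Wfdc1 (Pearson r of 0.90), Htra1 (0.82) and Tgfbi (0.81), and Igfbp7 to Cygb (0.87), Crlf2 and Tpm2 (0.81 each). Igfbp5 was closest to Sema3c (0.85), Osr2 (0.83) and Scara5 (0.79), and Igfbp6 to Htra3 (0.86), Axl and Anxa6 (0.84 each). For Igf1 they were Cav1 (0.83), Pnp (0.82) and Nedd4 (0.76), for H19 Ndufa7 (0.76), Lsp1 and D8Ertd738e (0.73 each), and for Igfbp4 Clta (0.71), Dusp3 (0.70) and Pdgfrb (0.69). These libraries share depth and group, which enter such values.

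**Figure D5:**
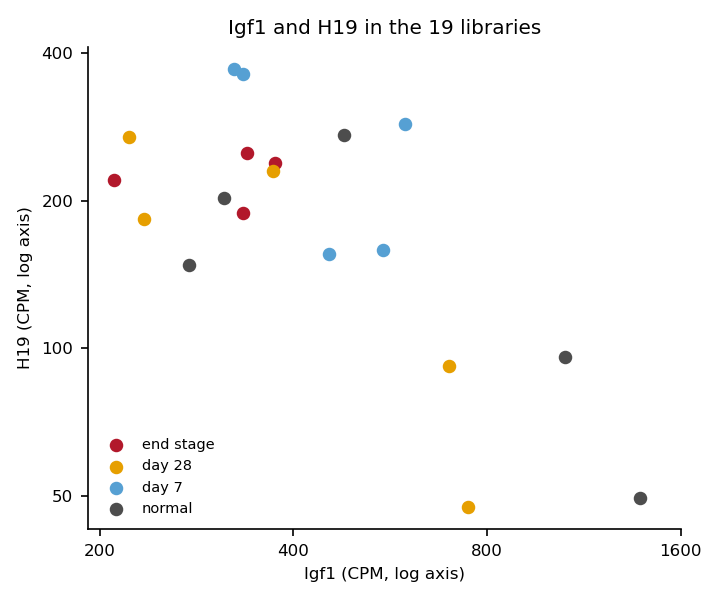
Igf1 against H19 in each of the 19 libraries, in CPM scaled by TMM on log axes, coloured by group. Normal replicates 2 and 4 hold the most Igf1 and, with day 28 replicates 2 and 4, the least H19.

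Of 21 pairs of tested members, Igf1 and H19 were the only one with an adjusted p under 0.05 for Pearson's r, at −0.71 (permutation p of 0.00088, adjusted 0.0185, n = 19). Spearman's rho was −0.45 (permutation p of 0.0558, adjusted 0.447), and without normal replicates 2 and 4, the libraries farthest from the median of Igf1, r was −0.53 (permutation p of 0.0260). With group means removed r was −0.77, and with the means of the replicate numbers removed as well it was −0.40. Igf1 followed the replicate number in part, with replicates 2 and 4 the highest in the normal, day 7 and day 28 groups, though not at the end stage. H19 was lowest in the same replicates in the normal and day 28 groups. The permutation p takes the 19 libraries as exchangeable and does not allow for this. The labels do not say what the replicate numbers share, and their part in the relation was not tested further. Igf1 and Igfbp7 had an r of −0.55 (permutation p of 0.0158), adjusted 0.0965.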

How the data were processed

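Fibroblast RNA of 19 mice was sequenced by MARS-seq, per the labels' protocols, after a check of RNA integrity. The values the authors deposited are raw gene counts for each library, per the file headers. The authors' deposited table also holds log2 fold changes and adjusted p-values, used only where named. The submitters' processing notes name DESeq2 and the build GRCm39. Aligner, annotation, strand setting and handling of molecular identifiers: not given in the sources used here. Reads of overlapping or antisense genes could therefore be shared. RefSeq sequences are of GRCm38.p6, and no coordinates were converted.

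Counts were fitted with edgeR 4.0.16 (R 4.3.3, TMM, filterByExpr with a minimum count of 10, robust quasi-likelihood F test) in 1 model of 4 groups, with Benjamini-Hochberg adjustment over 5980 genes and a threshold of 0.05. TMM factors were 0.949 to 1.099, and the common biological coefficient of variation was 0.334. Members below the filter were compared by exact permutation of mean CPM, adjusted over 10 tests, and correlations used 100000 permutations. Marker sums and rates pooled over libraries use library totals. The steps were tested on simulated data. Alternatives were DESeq2 1.42.0, limma 3.58.1 (voom with quality weights), other scalings and filters, only the 2 groups compared, a replicate block, shallow libraries left out, each library left out, and, chosen after seeing the data, a threshold of 0.1 and, for the correlation of Igf1 and H19, values with group means or group and replicate number means removed.

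Named genes were all members, pathway genes called in a comparison, the 4 pathway genes with the smallest joint p, and the 3 genes most like each member. The plot of pathway genes also names the lowest and highest gene of each list. Mesothelial markers given by symbol were picked after their counts were seen. Members and lists were chosen with earlier results of these data known. Marker lists of T and NK and B cells are not analysed here. Those of neutrophils, adipocytes, Schwann cells and skeletal muscle were summed but are not described here. Tables and figures used Python 3.11.15, pandas 2.3.3, numpy 2.4.6, scipy 1.17.1 and matplotlib 3.10.9.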

Additional observations from a re-analysis of the deposited data

Results flagged for a closer look

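Of 36 groups of 4 or 5 libraries, 5 held a library far from the others of its group by Dixon's ratio of gap to range. Chance gives about 1 group in 20, a rate that does not hold for the 2 Igfbp2 values, where 1 count among zeros sets the ratio to 1 by construction. Igf1r had 64.8 CPM in day 7 replicate 1, from 11 counts, against 15.8 to 25.9 CPM in the other day 7 libraries. Igfbp2 had 4.12 CPM in normal replicate 3 and 15.9 CPM in day 28 replicate 1, from 1 count each, against 0 in the other libraries of those groups. Igfbp4 had 201.6 CPM in end stage replicate 5, from 22 counts, against 31.0 to 43.6 CPM in the other end stage libraries. Igfbp5 had 3069 CPM in day 7 replicate 3, from 4867 counts, against 759.9 to 1419 CPM in the other day 7 libraries.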

How the results depend on the processing

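The count of members called was 0 in all 6 comparisons in the edgeR model. At the end stage against normal it was 1 with DESeq2, library size scaling, a minimum count of 30 and the added threshold of 0.1, each time Igfbp3, and 1 without the filter, Igfbp2. Without the filter the joint test also called 1, Igfbp2. Leaving out each library gave 0 to 1, with Igfbp3 called without normal replicate 5 or end stage replicate 2. The adjusted p of Igfbp3 ran from 0.0155 in DESeq2 to 0.362, at log2 fold changes of −1.16 to −0.84. With the shallow libraries left out it was 0.264 and with the 2 groups alone 0.161. The cause was not tested.

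Among the refitted log2 fold changes of members, 952 kept their direction and side of the threshold, 48 changed sign and 6 crossed it, all Igfbp3. Igf1 at day 28 against day 7 was 0.034 in DESeq2, 0.026 with its size factors in edgeR, 0.0097 with library size scaling and 5.87e-05 with the 2 groups alone. Without the filter Igfbp6 at day 28 against normal was −0.031 and Igfbp7 at day 28 against day 7 was −0.061. Igfbp7 at day 28 against normal was 0.081 in limma-voom. With the shallow libraries left out, Igfbp5 at day 28 against day 7 was 0.11, Igfbp7 −0.13, and Igfbp4 at the end stage against day 28 −0.57. There Igf1r at day 28 against normal was −6.85 CPM, Igfbp2 −0.823 CPM, and Igfbp2 at day 28 against day 7 −1.88 CPM.

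Leaving out each library, day 7 against normal ranged from −0.33 to 0.70 for Igfbp4, −0.13 to 0.051 for Igfbp6 and −0.19 to 0.094 for Igfbp7, and from −2.16 to 10.1 CPM for Igf1r. Day 28 against normal ranged from −0.14 to 0.48 for H19, −0.095 to 0.14 for Igfbp6 and −0.14 to 0.13 for Igfbp7, from −5.03 to 4.00 CPM for Igf1r and −0.823 to 3.18 CPM for Igfbp2. Day 28 against day 7 ranged from −0.24 to 0.19 for Igf1, −0.39 to 1.23 for Igfbp4, −0.32 to 0.37 for Igfbp5, −0.041 to 0.17 for Igfbp6 and −0.072 to 0.16 for Igfbp7, from −11.6 to 3.02 CPM for Igf1r and −1.88 to 2.30 CPM for Igfbp2. The end stage against day 28 ranged from −0.31 to 1.27 for Igfbp4.

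The call of Ccn2 at the end stage against day 28 held in DESeq2, at a minimum count of 30 and with the block, and was lost in limma-voom (adjusted p of 0.116), with no filter (0.0795), library size scaling (0.0719), size factors of DESeq2 in edgeR (0.0602), the 2 groups alone (0.247) and the shallow libraries left out (0.193).

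Counts over all genes moved more. At day 7 against normal they were 3 in edgeR, 9 in limma-voom, 1 at a minimum count of 30, and 0 with the block, library size scaling, the shallow libraries left out or only the 2 groups, and 0 to 3 with a library left out. At the end stage against normal they were 24 in edgeR, 49 in DESeq2 and 41 in limma-voom, and 3 to 41 with a library left out. At the end stage against day 28 they were 24, 57 and 16, then 44 without the filter and 9 without shallow libraries, and in the joint test 41, 72 and 98, then 96 without the filter and 23 at a minimum count of 30. With a library left out they were 5 to 53 and, in the joint test, 12 to 49. At the threshold of 0.1 they were 42 at the end stage against normal and 56 against day 28. At day 28 against day 7, limma-voom called 30, against 0 in edgeR. Without the filter the all-gene median was −0.14 at day 28 against normal, −0.14 at day 28 against day 7 and 0.14 at the end stage against day 28. With the filter these medians were −0.019, −0.014 and −0.0063.

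With the replicate number as a block, 0 members were called. The unadjusted joint p in edgeR was then 0.00343 for Igf1, against 0.0867 without the block, and 0.00775 for H19, against 0.156. The adjusted p with the block were 0.180 for Igf1 and 0.254 for H19 in edgeR, and Igfbp3 at the end stage was −0.96 with an adjusted p of 0.0811. Same-numbered libraries had a median correlation of 0.0918 over 1751 genes, with 13 of 27 pairs above 0.1, and libraries of different number −0.0604, with 39 of 108 above 0.1. In all, 5 of 19 libraries were closest to their own number. The numbers were not a block in the main fit because the labels describe each library as a biological replicate. These likeness values have no test, so they do not decide whether a number marks something shared. Depth limits Igfbp2, Igf1r and Igfbp4 most.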
